A study of Mus musculus with 6 samples.

Results

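Stromal cells of fat carry a set of surface proteins by which they are recognised and sorted. Transcripts of 9 such proteins were examined: the hyaluronan receptor Cd44, the glycolipid-anchored proteins Thy1 (CD90) and Ly6a (Sca-1), the TGF-beta co-receptor Eng (endoglin, CD105), the adhesion molecules Vcam1 and Mcam (CD146), the integrin chain Itgb1, and the PDGF receptors Pdgfra and Pdgfrb. The genes were chosen by name, with earlier results of these data known, and every probe annotated to them was taken. Values listed in time order run over the 6 arrays, day 0 first and day 14 last. A probe was annotated for 8 of the 9, all but Ly6a, among 9751 annotated genes on the array. These 8 genes had 13 probes, of which 12 were detected on at least 1 array and 11 on all 6.

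The cells were adipose derived mesenchymal stem cells from the dorsal and inguinal fat tissue of C57BL/6 mice, with no genetic change named in the labels. The 6 groups were cells at 0, 1 and 3 days and at 6, 10 and 14 days of osteogenic medium, with 1 Illumina bead array each and no replicate. The medium held 0.1 µM of the synthetic glucocorticoid dexamethasone, 50 µM ascorbic acid and 10 mM β-glycerophosphate, with 0.4% DMSO and 15% serum. It followed growth medium with 10% serum. None of the later arrays used here is of cells kept in growth medium, so days in osteogenic medium and days in culture cannot be told apart. Detected means a detection p-value, taken against the array's negative controls, under 0.01. Between 12891 probes (day 0) and 13980 probes (day 14) of 46613 were detected per array.

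As background, stromal cells are not a single cell type, and no single surface protein defines them. CD44 binds the matrix polysaccharide hyaluronan, and integrin chains pair as alpha and beta subunits to hold cells to collagen, fibronectin and laminin. PDGF receptors are tyrosine kinases that drive growth and migration of mesenchymal cells, and Pdgfra marks adipose and fibroblast progenitors while Pdgfrb is strong in pericytes. Endoglin binds ligands of the TGF-beta and BMP family together with their signalling receptors. Thy1, endoglin and CD44 are used to define mesenchymal stromal cells in culture. All 8 measured genes were detected on day 0, and 7 of them, all but Mcam, on every array. Of all 9751 annotated genes 7064 were detected on every array, so detection alone does not check the marker label.

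The course split the markers. Pdgfra rose, Cd44, Thy1, Eng and Mcam fell, and Pdgfrb, Vcam1 and Itgb1 did not pass. The test is the slope of the normalized log2 level on log2(day + 1) over the 6 arrays, from limma with Benjamini-Hochberg adjustment over 8881 tested genes at 0.05, so a bend in the course enters the error, and the p-value measures the scatter of 6 single arrays about a line. By this test 5 of the 8 genes were called, 1 risen and 4 fallen. Among all tested genes 36.2% were called, 18.5% risen and 17.7% fallen. Without day 0 the count was 2 of 8 (36.3% of all genes), and without day 6 or without day 10 it was 3 (24.5% and 15.8%). Each gene is represented by its brightest probe, and slopes are given ± SE. The RNA comes from bulk cultures, where fewer cells that carry a marker and less of its RNA per cell cannot be told apart.

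**Figure D1:**
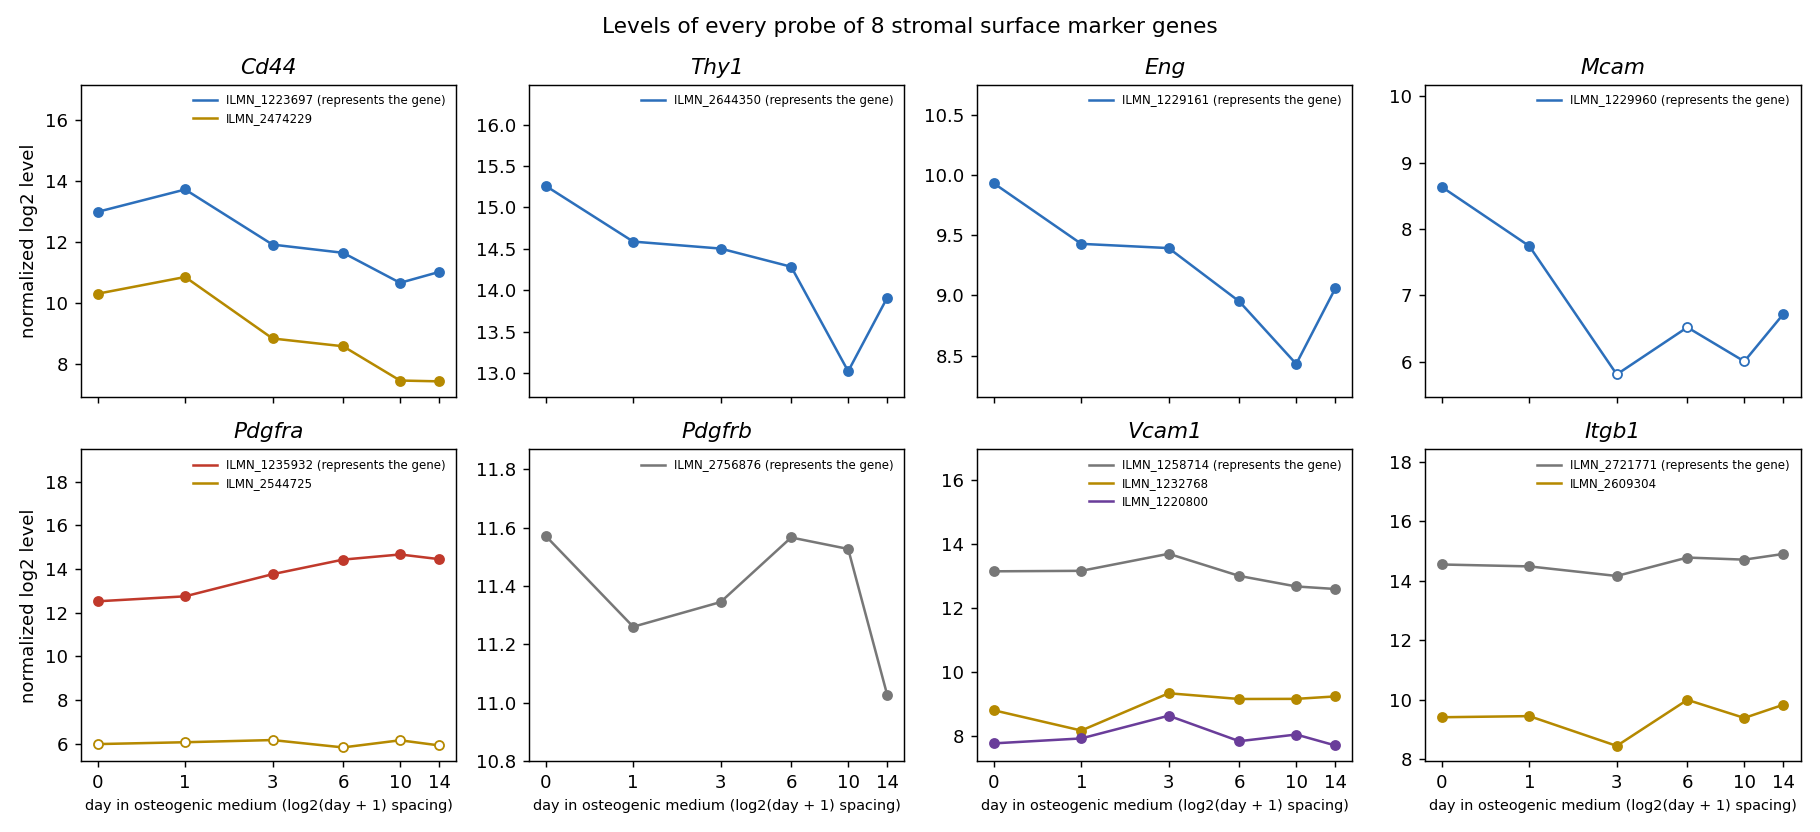
Normalized log2 level (vertical axis, its own range in each panel) of every probe of the 8 genes on the 6 arrays against the day in osteogenic medium, spaced as log2(day + 1). Filled points were detected and open points were not; the line named as representing the gene is red where the gene rose, blue where it fell and grey where it did not pass, and the other probes are in yellow or purple. Cd44, Thy1 and Eng were lowest on day 10 by the probe that represents the gene, and Pdgfra was highest there.

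Sequence upstream of a transcription start was taken for 5 of the 8 genes (Cd44, Eng, Mcam, Itgb1 and Pdgfra). It came from RefSeq annotation of the mouse build GRCm38.p6. It is shown for 3 genes that fell and for Itgb1, which did not pass, so that base composition can be read beside the course. Each line gives the 250 bases before the start, on the strand of the gene. Capitals mark the GC box GGGCGG and the glucocorticoid receptor half-site AGAACA on either strand. The same windows were searched on both strands for the TATA box TATAAA and the AP-1 site TGANTCA, and no 2 matches overlapped.
Cd44, chr2:102901666-102901915, minus strand: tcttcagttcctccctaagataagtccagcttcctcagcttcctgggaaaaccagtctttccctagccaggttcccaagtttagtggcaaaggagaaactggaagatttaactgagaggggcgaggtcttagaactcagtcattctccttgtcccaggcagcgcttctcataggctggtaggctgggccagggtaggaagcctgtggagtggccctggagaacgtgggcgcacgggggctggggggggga
Eng, chr2:32646345-32646594, plus strand: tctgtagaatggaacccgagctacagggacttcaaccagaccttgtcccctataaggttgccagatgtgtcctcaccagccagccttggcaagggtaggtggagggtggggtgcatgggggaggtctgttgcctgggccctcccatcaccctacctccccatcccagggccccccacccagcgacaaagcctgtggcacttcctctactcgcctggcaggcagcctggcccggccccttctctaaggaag
Mcam, chr9:44134408-44134657, plus strand: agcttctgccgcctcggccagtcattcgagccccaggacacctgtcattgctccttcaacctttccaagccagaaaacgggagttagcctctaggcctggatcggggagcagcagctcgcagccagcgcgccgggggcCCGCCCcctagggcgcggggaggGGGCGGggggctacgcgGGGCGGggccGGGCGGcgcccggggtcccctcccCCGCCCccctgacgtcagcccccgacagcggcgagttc
Itgb1, chr8:128685404-128685653, plus strand: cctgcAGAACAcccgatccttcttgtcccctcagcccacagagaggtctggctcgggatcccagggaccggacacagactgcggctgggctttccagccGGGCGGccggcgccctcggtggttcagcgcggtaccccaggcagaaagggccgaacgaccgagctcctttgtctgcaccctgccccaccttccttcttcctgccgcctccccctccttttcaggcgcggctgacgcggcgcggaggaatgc
The windows of the 3 genes that fell differed in composition. The Mcam window had 73.6% G and C, 25 CpG dinucleotides and 5 GC boxes, while the windows of Cd44 and Eng had 5 and 4 CpG dinucleotides and no GC box. The Itgb1 window had 21 CpG dinucleotides, 1 GC box and 1 glucocorticoid receptor half-site. The window of Pdgfra, the gene that rose, had 4 CpG dinucleotides and held none of the 4 motifs; it lies inside the annotated gene and is not printed. Of all 32851 windows of this length, 32.7% held the GC box, 12.4% the TATA box, 16.1% the glucocorticoid receptor half-site and 6.7% the AP-1 site, and the median number of CpG dinucleotides was 6. A match is only a match of letters, and no match says only that these letters are not in this window.

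Cd44, the hyaluronan receptor, fell, and its day 1 array lay above day 0. In time order, Cd44 had log2 levels of 12.98, 13.71, 11.91, 11.64, 10.66 and 11.02 on probe ILMN_1223697. The day 1 array was the highest and the 3 last arrays were the lowest. Against day 0 the Cd44 level was 1.66-fold higher by day 1, and it was lower by 2.10-fold at day 3, by 5.01-fold at day 10 and by 3.91-fold at day 14, single arrays that allow no test. Between day 1 and day 3 alone it was 3.49-fold lower on the later day. The slope of Cd44 was -0.70 ± 0.138 (limma adjusted p = 0.0113), and 3.29% of all tested genes had a slope as low or lower. A second Cd44 probe, ILMN_2474229, had a like course, with log2 levels of 10.30, 10.85, 8.84, 8.58, 7.46 and 7.43 in time order. Fitted among all 15504 detected probes it had a slope of -0.89 ± 0.136 (adjusted p = 0.00581). In the authors' deposited table the 2 probes were 3.77-fold and 4.97-fold lower on day 14 than on day 0.

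Thy1, a glycolipid-anchored immunoglobulin-like protein of fibroblasts and stromal cells, was highest on day 0. The Thy1 arrays on probe ILMN_2644350 read 15.26, 14.59, 14.50, 14.28, 13.02 and 13.91 in log2 level, in time order. All later arrays lay below day 0, with day 10 the lowest and day 14 above day 10. The slope of Thy1 was -0.43 ± 0.105 (limma adjusted p = 0.0207), and against day 0 the level was lower by 4.73-fold at day 10 and by 2.55-fold at day 14. The day 0 signal of Thy1 stood at 58.7% of the highest signal on that array, and whether the range of the scanner limits its folds from day 0 was not tested. Without day 0 its slope was -0.40 and its call was lost (adjusted p = 0.0898). The deposited signal itself was 37406 at day 0, 8237 at day 10 and 14682 at day 14.

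Eng, which codes for endoglin, had the shape of Thy1 at a smaller size. In time order, Eng had log2 levels of 9.93, 9.43, 9.39, 8.95, 8.43 and 9.06 on probe ILMN_1229161. Every later array was below day 0, and day 10 was the lowest. Eng fell with a slope of -0.29 ± 0.0845 (limma adjusted p = 0.0334), and against day 0 its level was lower by 2.83-fold at day 10 and by 1.83-fold at day 14. The call ended without day 0, day 6 or day 10 (adjusted p = 0.151, 0.0698 and 0.0895). It also ended with the slope taken on the day itself (0.102) and with a linear and a quadratic term together (0.1).

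Mcam, an adhesion molecule of pericytes and endothelial cells that is also used to enrich clonogenic stromal cells, was the dimmest of the 8 and the one marker that dropped below detection. The Mcam arrays on probe ILMN_1229960 read 8.63, 7.74, 5.81, 6.52, 6.00 and 6.72 in log2 level, in time order. It was detected on days 0 and 1, not on days 3, 6 and 10, and only just on day 14, where the detection p-value was 0.00936. On the normalized scale Mcam was 1.85-fold lower at day 1 than at day 0. It was at least 3.36-fold lower at day 3, at least 3.30-fold at day 6 and at least 3.38-fold at day 10, and 3.77-fold lower at day 14. A bound uses the lowest detected level on the later array. These bounds hold after background correction only: in the authors' deposited table Mcam was lower by 3.37-fold at day 3, 2.6-fold at day 6, 3.06-fold at day 10 and 2.41-fold at day 14. Its slope of -0.56 ± 0.184 passed narrowly (limma adjusted p = 0.0493) and includes arrays at background. The call was lost without any 1 of days 0, 1, 6, 10 and 14 (adjusted p up to 0.342), with median scaling (0.0594), with cyclic loess (0.0541), with the slope on the day itself (0.223) and without the intensity trend (0.0502). The slope was -0.32 without day 0 and -0.35 on signals as deposited.

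Pdgfra, the receptor for PDGF-A and related ligands, was the only one of the 8 to rise. In time order, Pdgfra had log2 levels of 12.52, 12.75, 13.77, 14.43, 14.67 and 14.46 on probe ILMN_1235932. The level was higher on each array than on the one before up to day 10, and day 14 lay slightly below day 10. Against day 0 Pdgfra was higher by 1.17-fold at day 1, 2.37-fold at day 3, 3.76-fold at day 6, 4.42-fold at day 10 and 3.81-fold at day 14. The slope was 0.60 ± 0.0751 (limma adjusted p = 0.00433), and 5.56% of all tested genes had a higher slope. A second Pdgfra probe, ILMN_2544725, was not detected on any array and gives no level.

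Pdgfrb, the receptor for PDGF-B and PDGF-D, did not follow its relative. The Pdgfrb arrays on probe ILMN_2756876 read 11.57, 11.26, 11.35, 11.57, 11.53 and 11.03 in log2 level, in time order. The 6 arrays spanned 1.46-fold in all, and 16.3% of tested genes had a span as small or smaller. The slope was -0.05 ± 0.0690 (limma adjusted p = 0.583), and the 95% interval of the fitted change, day 14 minus day 0, ran from -0.83 to 0.43 on the log2 scale. The lowest array was day 14, and without it the slope was 0.0204. The difference between the 2 receptors was tested within arrays, where Pdgfra minus Pdgfrb had a slope of 0.65 ± 0.0354 (exact permutation p = 0.00139, two-sided, the smallest that 720 orders of the arrays can give; adjusted p = 0.0292 over 21 pairs). Their ratio had changed, relative to day 0, 1.45-fold at day 1, 2.77-fold at day 3, 3.77-fold at day 6, 4.56-fold at day 10 and 5.57-fold at day 14, each time towards Pdgfra. It was higher on each array than on the one before.

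**Figure D2:**
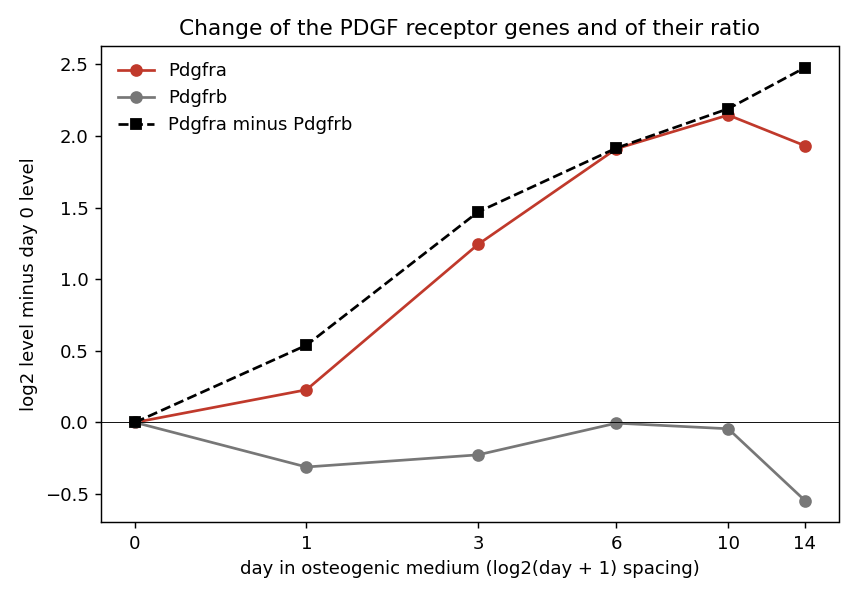
Change of Pdgfra (red), Pdgfrb (grey) and their within-array difference (black squares, dashed) from the day 0 array, in log2 units, against the day in osteogenic medium spaced as log2(day + 1); 1 array a day, no error bars. The dashed line was higher on each array than on the one before and reached 2.48 on day 14, while Pdgfrb stayed between -0.55 and 0.

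Vcam1, a ligand of leukocyte integrins that is carried by bone marrow and fat stromal cells, peaked on day 3. In time order, Vcam1 had log2 levels of 13.14, 13.16, 13.69, 13.00, 12.67 and 12.59 on probe ILMN_1258714. Day 3 was the highest array and the 2 last arrays were the lowest. Its slope of -0.16 ± 0.0898 did not pass (limma adjusted p = 0.203), and the 95% interval of the fitted change, day 14 minus day 0, ran from -1.44 to 0.21 on the log2 scale. The slopes of the 3 Vcam1 probes were not all of the same sign and none passed, and all 3 probes shared the peak on day 3. Probe ILMN_1232768 had levels of 8.79, 8.16, 9.33, 9.15, 9.15 and 9.23 in time order, with a slope of 0.18 ± 0.0995 among all probes (adjusted p = 0.177). Probe ILMN_1220800 had levels between 7.69 on day 14 and 8.62 on day 3, with a slope of -0.01 ± 0.102 (adjusted p = 0.963). The brightest probe is annotated to the RefSeq transcript and the other probes to separate cDNA records, so no single direction can be given for Vcam1 over the whole course.

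Itgb1, the beta chain shared by most collagen, laminin and fibronectin receptors, had its lowest array on day 3. The Itgb1 arrays on probe ILMN_2721771 read 14.55, 14.48, 14.16, 14.78, 14.71 and 14.90 in log2 level, in time order. The 6 arrays spanned 1.67-fold. The slope was 0.10 ± 0.0652 (limma adjusted p = 0.263), and the fitted change, day 14 minus day 0, had a 95% interval from -0.21 to 0.98 on the log2 scale. A second probe, ILMN_2609304, also had its lowest level on day 3, at 8.45, and its highest on day 6, at 10.00. Its slope among all probes was 0.11 ± 0.137 (adjusted p = 0.566). Over all 12 detected probes of the 8 genes, 1 rose and 5 fell; among all detected probes 35.9% were called, 17.9% risen and 18% fallen. Without day 0, 3 of the 12 were called.

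**Figure D3:**
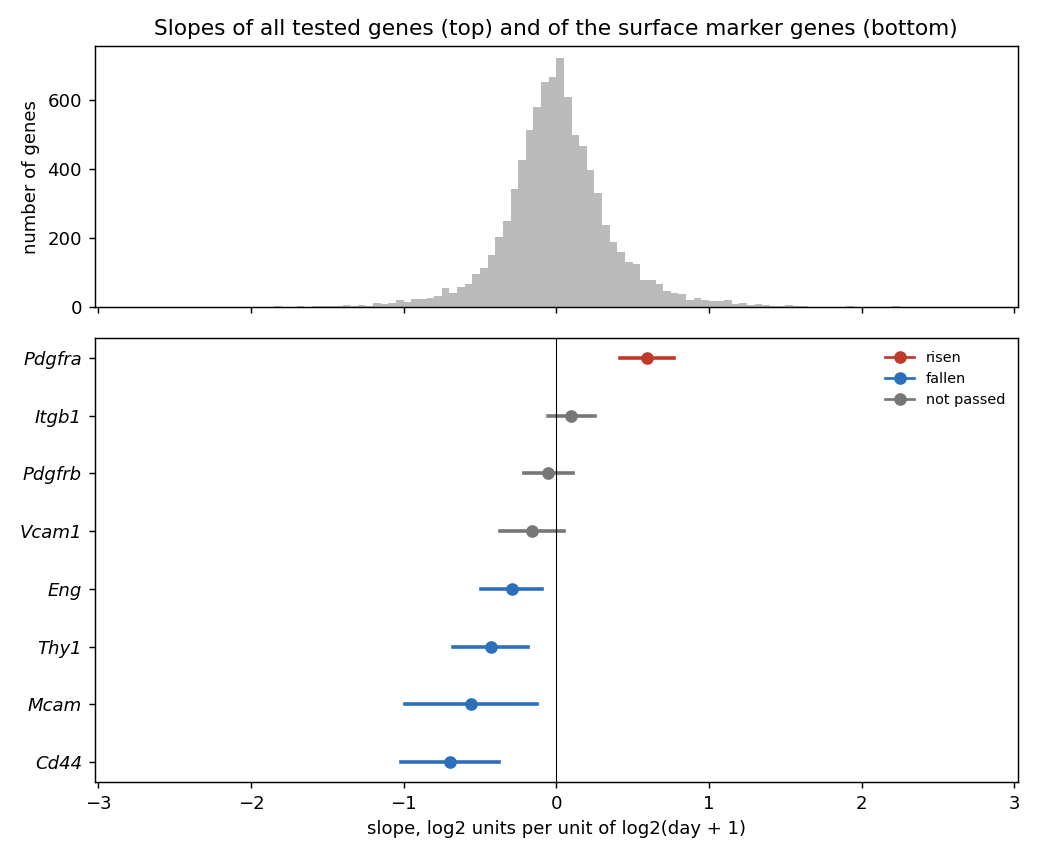
Top, number of tested genes by slope (log2 units per unit of log2(day + 1)) for all 8881 genes; bottom, the slope of each of the 8 marker genes (point) with its 95% interval from the limma fit (bar), red for risen, blue for fallen and grey for not passed. The intervals of Pdgfrb, Vcam1 and Itgb1 include 0, and the interval of Pdgfra is the only one wholly above 0.

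Ranked by slope, the 7 genes detected on all arrays ran Cd44, Thy1, Eng, Vcam1, Pdgfrb, Itgb1 and Pdgfra from the steepest fall to the rise. Slopes were compared within arrays for all 21 pairs with the two-sided exact permutation test over 720 orders of the arrays, and p-values were adjusted over the pairs (Benjamini-Hochberg). Of the 6 pairs that held Pdgfra, 5 differed: those with Pdgfrb, Vcam1, Thy1, Eng and Cd44. The pair of Pdgfra and Itgb1 differed by 0.50 ± 0.122 and missed the threshold (exact permutation p = 0.0153, adjusted p = 0.0535). Of the 15 pairs without Pdgfra 0 passed and 4 had an unadjusted exact p under 0.05. The smallest adjusted exact p among them was 0.0625, for Cd44 against Itgb1, whose slopes differed by -0.80 ± 0.185. No 2 neighbours in the order passed the threshold in this test, with adjusted exact p-values from 0.0535 to 0.472. On slopes taken on the day itself, 0 of the 21 pairs passed by the same exact test and 8 had an unadjusted p under 0.05.

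Single days can be read only as folds between 2 arrays. On day 1, 0 of the 8 genes lay at least 2-fold from day 0, against 7.62% of all genes detected on either array (3.97% higher, 3.65% lower). On day 3 these were 3 genes, Pdgfra upward and Cd44 and Mcam downward (11.8% of all genes, 7.39% higher and 4.41% lower), and on day 6 the same 3 genes (24.6%). On day 10 they were 5 genes, with Thy1 and Eng added downward (31.2%), and on day 14 they were 4, without Eng (30.1%). On the probes that represent the genes, the log2 level on day 14 was above that on day 10 by 0.36 for Cd44, 0.89 for Thy1 and 0.63 for Eng. The second Cd44 probe read 7.43 on day 14 and 7.46 on day 10. It was near the detection limit there, with detection p-values of 0.00499 on day 14 and 0.00561 on day 10. A rise like that of the first probe may not show at this level. By the representing probes Cd44, Thy1 and Eng were lowest on day 10, and 21% of the 7064 genes detected on all arrays were lowest there. Whether the day 10 array differs in other ways was not tested. Without day 10 the slopes were -0.62 for Cd44, -0.31 for Thy1 and -0.23 for Eng, and Cd44 and Thy1 still passed (adjusted p = 0.0426 and 0.0275).

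**Figure D4:**
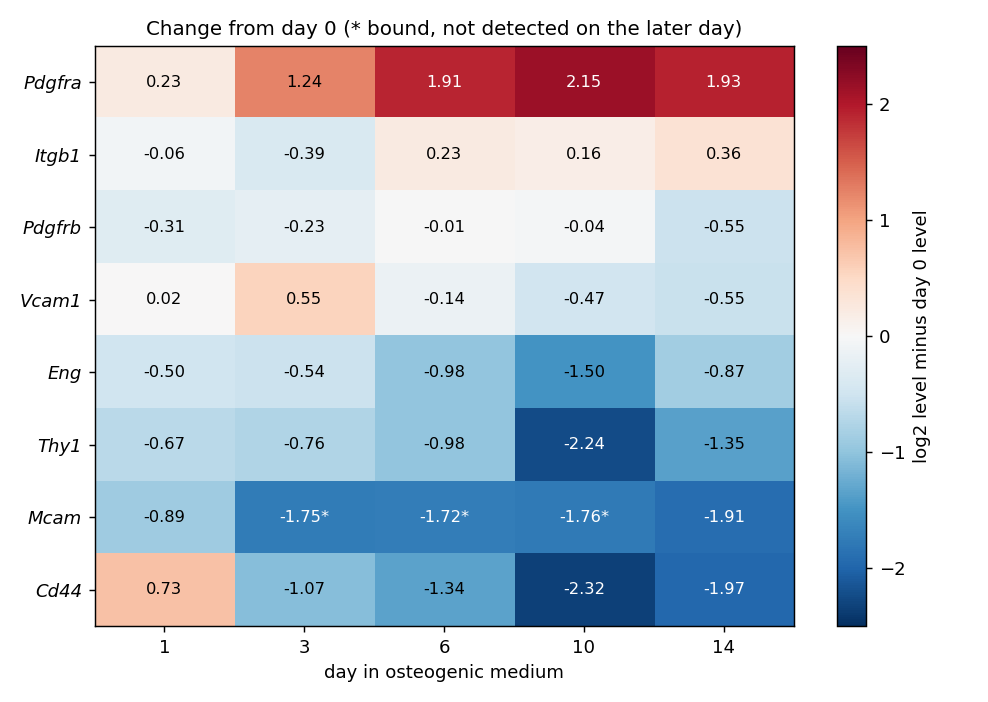
Change in log2 level from the day 0 array (colour and printed value) of the 8 genes, ordered by slope, on days 1, 3, 6, 10 and 14, with 1 array a day. An asterisk marks a bound for Mcam, which was not detected on the later day. Pdgfra is above 1 from day 3 onward and Cd44 below -1 from day 3 onward.

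The partners of these receptors were described by 7 lists of ligands, subunits and relatives, chosen with earlier results of these data known. Integrin alpha chains went both ways while Itgb1 did not pass. Itgav, the vitronectin receptor chain, fell at -0.74 ± 0.102 (limma adjusted p = 0.00491) and Itga5, the fibronectin receptor chain, at -0.53 ± 0.151 (adjusted p = 0.0326; lost without day 6, 10 or 14, up to 0.155). Itga8, which pairs with Itgb1 to bind nephronectin, rose at 1.30 ± 0.324 (adjusted p = 0.0219; lost without day 1, 10 or 14, up to 0.096). Itga8 stood at a log2 level of 10.77 on day 14 and at 6.39 on day 0, and it was detected on the 3 last arrays alone. The collagen receptor chain Itga11 had a log2 level of 12.27 on day 14 and 14.22 on day 0 and did not pass (-0.32 ± 0.146, adjusted p = 0.124), and neither did the laminin receptor chains Itga3 (-0.08 ± 0.177) and Itga6 (-0.41 ± 0.181, detected on day 1 alone). Of 6 tested alpha chains, 1 rose and 2 fell, against 18.5% and 17.7% of all tested genes. Among 10 adaptors of integrin adhesions, Zyx (zyxin) fell at -0.32 ± 0.0584 (adjusted p = 0.00954) and 9 did not pass. Their median slope was -0.15, against 0.00 for all tested genes.

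Of 4 listed ligand genes of the PDGF receptors, 3 had an annotated probe and were tested, and these 3 did not pass. Pdgfa had a slope of -0.13 ± 0.0880 (limma adjusted p = 0.289), Pdgfc of -0.21 ± 0.150 (adjusted p = 0.301) and Pdgfd of -0.04 ± 0.0881 (adjusted p = 0.754). The log2 level of Pdgfa lay between 11.82 on day 10 and 12.77 on day 1. Around endoglin, the co-receptor gene Tgfbr3 (betaglycan) rose at 0.38 ± 0.0448 (adjusted p = 0.00389), while the ligand genes Tgfb1 and Tgfb2 fell at -0.50 ± 0.0689 (adjusted p = 0.00494) and -0.35 ± 0.0828 (adjusted p = 0.0190; lost without day 0, 10 or 14, up to 0.0907). Tgfbr3 had log2 levels of 14.21, 14.42, 14.93, 15.27, 15.61 and 15.50 in time order, so the 2 co-receptor genes Eng and Tgfbr3 had slopes of opposite sign. The signalling receptor genes Tgfbr1 (0.05 ± 0.0885), Tgfbr2 (0.22 ± 0.0908) and Acvrl1 (0.25 ± 0.0921) did not pass. Of 9 tested genes in this list, 1 rose and 2 fell, a share near the 36.2% called among all tested genes.

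Of 9 tested genes of hyaluronan, the ligand of CD44, and of CD44 partners, 1 rose and 4 fell, against 18.5% and 17.7% of all tested genes. Of the 4 falls, all but that of Has1 were lost when single days were left out. The hyaluronan synthase genes Has1 and Has2 fell at -0.84 ± 0.149 (limma adjusted p = 0.00865) and -0.68 ± 0.184 (adjusted p = 0.0279; lost without day 1, 10 or 14, up to 0.102). Has1 was detected on 3 arrays, and its later levels are at background. Has2 had log2 levels of 11.59, 12.40, 11.82, 9.55, 9.98 and 9.66 in time order, with day 1 the highest array as for Cd44. Of the 7064 genes detected on all arrays, 24.1% were highest on day 1. Cemip, which takes part in hyaluronan breakdown, fell at -0.94 ± 0.287 (adjusted p = 0.0389; lost without day 0, 1, 10 or 14, up to 0.104), and Msn (moesin), which links the CD44 tail to actin, fell at -0.28 ± 0.0743 (adjusted p = 0.0271; lost without any day but day 3, up to 0.082). The hyaluronidase gene Hyal1 was the 1 riser, at 0.66 ± 0.159 (adjusted p = 0.0195; lost without day 10 or 14, up to 0.0883), and is named after its values were seen.

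Among relatives of Ly6a, Ly6c1 and Ly6e were bright and did not pass, at 0.50 ± 0.182 (limma adjusted p = 0.0686) and 0.17 ± 0.105 (adjusted p = 0.248). Ly6c1 had log2 levels of 12.96, 12.72, 15.00, 15.11, 14.10 and 14.67 in time order, with both early arrays below the 4 later ones. They say nothing of Ly6a itself. The urokinase receptor gene Plaur, named after its values were seen, was the 1 called gene of 7 in this family, against 36.2% of all tested genes. Plaur fell at -1.29 ± 0.152 (adjusted p = 0.00379) and was detected on 4 arrays. Of 9 immunoglobulin-type adhesion genes, Ncam1 fell at -0.65 ± 0.0714 (adjusted p = 0.00341) and Nectin2 at -0.25 ± 0.0740 (adjusted p = 0.0372; lost without day 0, 10 or 14, up to 0.168). The other 7 of these genes did not pass, and 17.7% of all tested genes fell. Icam1, named after its values were seen, did not pass (-0.14 ± 0.138, limma adjusted p = 0.451). Its highest array was day 3, at 11.10, as for Vcam1. Of the 7064 genes detected on all arrays, 13.6% were highest on day 3.

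**Figure D5:**
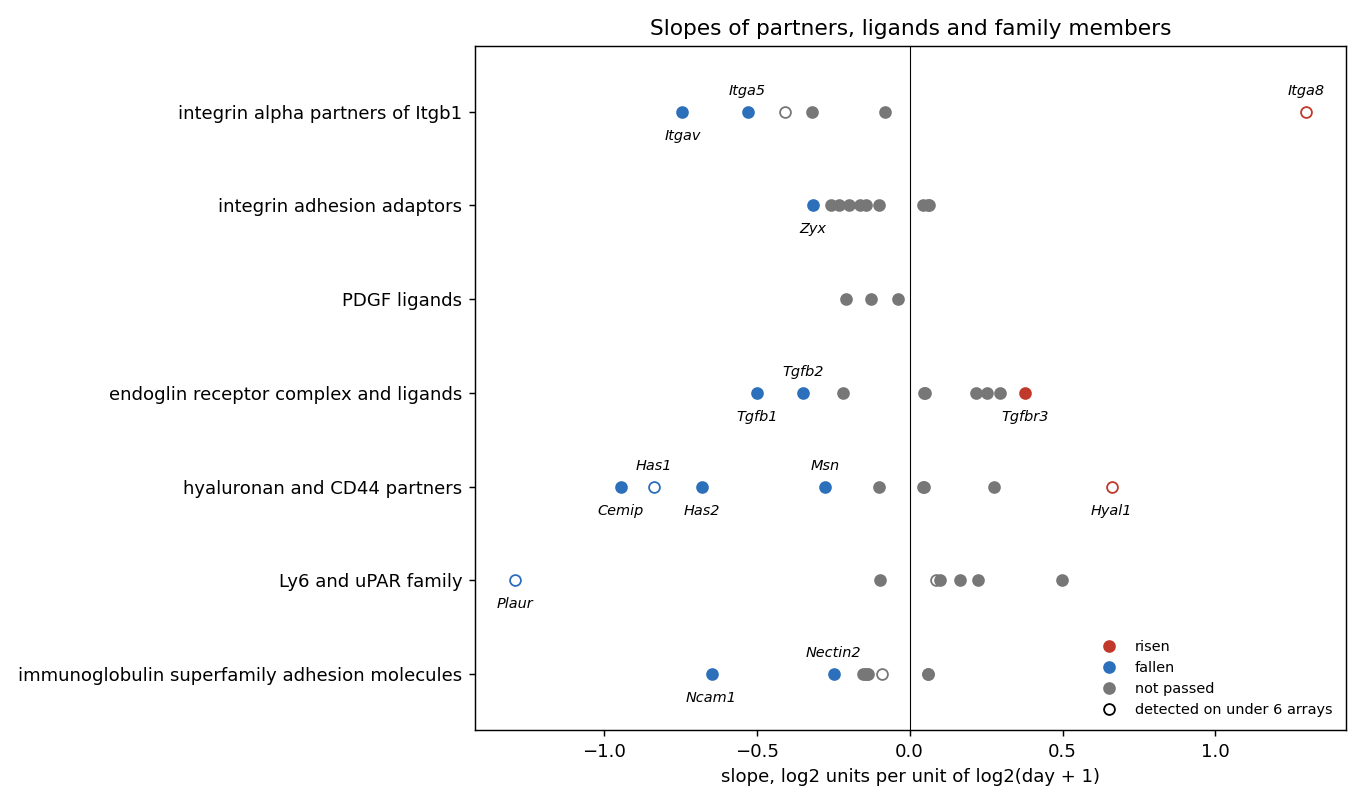
Slope (log2 units per unit of log2(day + 1)) of each tested gene in the 7 lists of partners, ligands and relatives; red points rose, blue points fell and grey points did not pass, and open points were detected on under 6 arrays. Called genes are named; Itga8 is the largest rise, at 1.30, and Plaur the largest fall, at -1.29.

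Of 17 other markers of stromal cells tested, 1 rose and 4 fell (18.5% and 17.7% of all tested genes), with a median slope of -0.09. Besides Itgav and Itga5, the fallers were Sdc1, the heparan sulfate proteoglycan syndecan, at -0.79 ± 0.124 (limma adjusted p = 0.00646), and Tnfrsf12a, the receptor of the cytokine TWEAK, at -0.74 ± 0.101 (adjusted p = 0.00480). The riser was Cd34, a sialomucin of progenitor and endothelial cells, at 0.94 ± 0.265 (adjusted p = 0.0317), named after its values were seen. Cd34 had log2 levels of 6.49 and 5.79 on days 0 and 1, where it was not detected, and between 9.02 and 9.71 on the 4 later arrays. Its call was lost without any 1 of days 0, 6, 10 and 14 (up to 0.0827). Among 11 tested markers of adipose progenitor subtypes, Dlk1, a preadipocyte surface protein, rose at 1.11 ± 0.235 (adjusted p = 0.0136; lost without day 10 or 14, up to 0.0557). Fmo2, named after its values were seen and detected on 3 arrays, rose at 1.30 ± 0.230, while F3 (tissue factor) and Mfap5 fell at -0.38 ± 0.0659 (lost without day 14, 0.0503) and -0.19 ± 0.0484 (lost without day 10 or 14, up to 0.118). Of these 11 markers 2 rose and 2 fell, against 18.5% and 17.7% of all tested genes. Over the 13 lists together, 30 of 92 tested genes were called, 11 risen and 19 fallen. That is 32.6%, against 36.2% of all tested genes. Without day 10 or day 14 the called genes of these lists numbered 16 of 92 and 15 of 92, against 15.8% and 11.5% of all tested genes.

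Several of the markers are also carried by endothelial and mural cells, so markers of those cells are given beside them. Among all tested genes 18.5% rose and 17.7% fell. Of 6 endothelial markers with a probe, 4 or 5 were detected on each array, and their summed deposited signals were 2910, 3676, 9144, 24268, 24687 and 32836 in time order. Ramp2 and Flt1, the VEGF receptor, rose at 1.53 ± 0.124 (limma adjusted p = 0.00189) and 1.25 ± 0.165 (adjusted p = 0.00456). On day 14 their log2 levels were 14.80 and 12.34, against 8.82 for Tek, 7.76 for Kdr and 7.28 for Egfl7. The day 14 sum was thus mostly that of Ramp2 and Flt1. Egfl7, named after its values were seen, fell at -0.83 ± 0.217 (adjusted p = 0.0250; lost without day 1, 6, 10 or 14, at most 0.0891), and Tek and Kdr did not pass. Emcn was not detected on any array, and Pecam1 and Cdh5 had no annotated probe in the table used here. Of 8 mural markers with a probe, 6 to 8 were detected on each array, and their summed signal lay between 45981 (day 10) and 101680 (day 6). Tagln fell at -1.02 ± 0.170 (adjusted p = 0.00744), Cox4i2, named after its values were seen, rose at 0.32 (adjusted p = 0.0452; lost without any day but day 0, up to 0.199), and 6 did not pass, Acta2, Myh11, Mylk and Cspg4 among them. Of 4 haematopoietic markers with a probe, Laptm5 and Spi1 were not detected on any array, and the summed signal lay between 887 (day 0) and 1391 (day 6). Ptprc had no annotated probe in the table used here, and Cd14, named after its values were seen, rose at 0.66 ± 0.128 (adjusted p = 0.0108). Of the 2 epithelial or mesothelial markers with a probe, 1 or 0 were detected on each array, and their summed signal was 300.4 on day 14 and 527 on day 0. Named after their values were seen, Krt19 fell at -0.87 and Msln rose at 0.35 (adjusted p = 0.00415 and 0.0321), the call of Msln lost without any day but day 3. The part of these cells in the change of Eng, Mcam and Pdgfrb was not tested.

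The genes most like each marker were taken as those with the highest Pearson correlation of log2 level over the 6 arrays, among 7063 other genes detected on all of them. With 6 arrays and this many genes high values are common, so these are descriptions only. Pdgfra was most like Mitf, a transcription factor of the melanocyte and osteoclast lineages (0.9985), Aldh6a1 (0.9983) and Bbs9 (0.998), and 418 genes had a correlation over 0.95 with it. Cd44 was most like Agfg1 (0.9969), Tmtc4 (0.9966) and Mmgt1 (0.9948), with 264 genes over 0.95. Thy1 was most like the collagen-modifying enzyme Plod3 (0.9907), Rab1b and Trim2, and Eng most like Twf1 (0.9927), Selenos and Tmem141, with 48 and 57 genes over 0.95. Vcam1 was most like Acly, the enzyme that makes cytosolic acetyl-CoA (0.9953), Matn2 and Gcnt1, and Itgb1 most like Trappc6b (0.9912), Prdm16 and the retinoic acid hydroxylase Cyp26b1, with 39 and 15 genes over 0.95. Pdgfrb had 1 gene over 0.95, Zfp282 (0.9803), followed by Maco1 (0.9307) and Zbtb9.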

How the data were processed

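Biotin-labelled cRNA was hybridised to Illumina single-colour bead arrays, per the labels' protocols. The authors deposited 1 table with a signal intensity per probe and array, not normalized between arrays, and a detection p-value per probe and array. They also deposited a table of signed folds over the control array, a score in which a fall is minus the inverse ratio and whose scaling is not given in the sources used here. Columns were matched to days through the series matrix, where 17785 of 17785 values were equal within 1e-05 on each array. Of 46649 entries, 6 without an identifier and 30 with a repeated one were left out.

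Signals were background corrected with nec from detection p-values (offset 16), then quantile normalized to log2 values with limma 3.58.1 (R 4.3.3). Of several probes the one with the highest mean stood for the gene, which was tested if detected on at least 1 array (lmFit, eBayes with an intensity trend, 4 residual degrees of freedom). The fit was tested on simulated data. Folds between single arrays have no test. Annotated symbols came from the platform table (13805 probes with 1 symbol, 3 with several and 32805 with none); of these, 13788 gene identifiers were found in the RefSeq table and 0 symbols changed. The number of arrays limits the precision, and bead errors are not used here.

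The members and lists were chosen with earlier results of these data known. The rule for named genes takes all members with every probe. From each list it takes up to 4 called genes detected on all arrays, with integrin alpha chains, PDGF ligands, TGF-beta receptors and hyaluronan synthases in any case. For each member detected on all arrays it takes the 3 most like genes. Alternatives were another scaling, background correction, offset, filter, probe choice, time scale, time model and variance model, and each array left out.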

Additional observations from a re-analysis of the deposited data

How the results depend on the processing

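Pdgfra and Cd44 kept their direction and their calls under all 18 alternatives, with adjusted p up to 0.0263 for Pdgfra and 0.0452 for Cd44. Of the 8 genes, 5 were called. The count was 3 with the slope on the day itself and 3 with a linear and a quadratic term together. Over all 8881 tested genes these 2 settings called 2465 and 1828, against 3217 in the main fit. With single days left out the count among the 8 genes lay between 2 (without day 0) and 5. Called probes of these genes numbered 6, and between 3 and 6 with single days left out. Without day 10 or day 14 the calls over all genes numbered 15.8% and 11.5% of those tested, against 36.3% without day 0. Thy1 and Eng lost their calls with the quadratic term (limma adjusted p = 0.0705 and 0.1). The pairs that differed in slope numbered 5, and 0 on the day itself, where 8 had an unadjusted exact p under 0.05. Not passed in either case, the slope of Pdgfrb turned to 0.0204 without day 14 (lowest -0.0858, without day 10) and that of Vcam1 to 0.0068 as the mean of its probes. Of the 92 tested genes in the related lists 30 were called. In alternatives chosen after seeing the data the count was 30 with median scaling and with signals as deposited. It was 16 without day 10 and 15 without day 14. Among genes detected on all arrays, where fewer than 92 were tested, it was 20, beside 2435 called of all 7064 such genes. The cause of these shifts was not tested. Median scaling moved the median of all tested genes by 0.12 on the log2 scale between day 0 and day 14, and no member changed sign under any scaling. Signal over background limits Mcam, Has1, Itga8 and Cd34. No paired analysis was possible because each day has 1 array.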
